A study of Homo sapiens with 6 samples.

Results

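The HOX genes of the 4 human clusters were followed in H9-derived 3PPE, the endoderm of the third pharyngeal pouch, after siRNA treatment directed at HOXA3. The members were listed by symbol. They were the HOX genes HOXA2 to HOXA13, HOXB1 to HOXB13, HOXC4 to HOXC13 and HOXD1 to HOXD13 (38 symbols), together with HOTAIRM1, HOXA-AS2 and HOXA-AS3, which are noncoding genes transcribed near HOXA3. All 41 symbols were found, on 42 of the 58735 rows of the count matrix, because HOXC5 had 2 gene identifiers, of which the second is annotated as a processed transcript. 1 further HOX gene of the HOXA cluster was not analysed here, so that every sum over that cluster covers 10 genes and every sum over paralog group 1 covers HOXB1 and HOXD1. The total of HOX reads, and every share of it, leaves that gene out as well.

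The study asked how inhibition of HOXA3 alters 3PPE, and RNA-seq was performed on 3 siControl and 3 siHOXA3 libraries. Both groups came from H9, a single line of hESCs that was grown on a feeder layer of MEF. The genotype label reads WT for siControl and HOXA3 knockdown for siHOXA3. All cells received 100 ng/ml activin A with 50 ng/ml WNT3A and 10 μM of the ROCK inhibitor Y-27632 on the first day, then 100 ng/ml activin A with 0.5% B27. From the reseeding at day 4 until the siRNA step they were kept in 1 μM retinoic acid (RA), 10 μM SB431542, 20 ng/ml BMP4 and 2.5 μM IWP2 with 0.5% B27. At day 7 either the negative control siRNA or the HOXA3 siRNA was delivered with the transfection reagent Lipofectamine 3000. According to the paper, opti-MEM took the place of the differentiation medium some hours later. Whether RA and the other factors were added to it is not stated. RNA was taken at day 9. The paper describes its repeats as independent biological ones, and the labels number the libraries without naming separate cultures. The p-values below measure the spread between these libraries.

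HOX proteins are homeodomain transcription factors that give cells their position along the head to tail axis. Genes of 1 paralog group descend from a common ancestor and hold the same place in each cluster. Genes at the 3′ end of a cluster are switched on first and farthest forward, in the hindbrain and pharyngeal arches, and respond to RA, whereas genes at the 5′ end are used in the trunk, limbs and tail. In the pharynx the genes of paralog groups 2 and 3 are best known, and loss of Hoxa3 in the mouse leaves the embryo without a thymus or parathyroids.

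Total counts ranged from 14117150 to 15282307 per library. Levels are given as CPM, counts scaled to the normalized size of the library. Where no read was found, a level of up to 3 counts is still possible, which came to 0.197 to 0.211 CPM in a single library and to 0.0336 CPM over the 89300407 reads of all 6 libraries. These limits cover counting error only. The library labelled siHOXA3 2 stood apart from the rest, with a chi-square per degree of freedom between 28.2 and 34.1 against each of the other libraries, compared with 4.83 to 11.7 among the other pairs. The label of the cells was held against marker genes. EYA1, a pouch gene, had a mean of 36.3 CPM in siControl, and EPCAM, an epithelial surface gene, had 262.9 CPM. The transcription factor genes of the endoderm and pouch lists differed. GATA6 had 801, 842 and 855 reads in siControl (55.1 CPM), while GATA4 and FOXA1 had 0.576 and 0.352 CPM, FOXA2 had 2, 0 and 0 reads, and SOX17, PAX1 and FOXN1 had none. The amnion and trophoblast genes also ran from high to near the floor, with KRT7 at 663, HAND1 at 333, GATA3 at 291 and TFAP2A at 237 CPM, CGA at 17.4 and ISL1 at 12.1 CPM, and TP63 and CDX2 at 1.17 and 0.353 CPM. The cells are therefore named by the label of the study in what follows, not by these markers.

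Promoter sequences of RefSeq on GRCh38.p14, which run from 250 bases before to 50 bases after an annotated start, were available for 22 of the 41 symbols with 29 promoters in all, 7 of them for HOXA3. 4 are shown: that of HOXA3, that of its neighbour HOXA2, that of its paralog HOXD3, which had no read, and that of HOXB1, as the only tested HOXB gene with a promoter in the table. Capitals mark TGATNNAT, a form of the joint site of PBX and HOX proteins, in HOXA2 and HOXB1, and TAATTA, a homeodomain core, in HOXD3. Both strands were searched, and each sequence is written 5′ to 3′ on the strand of its gene. The HOXA3 promoter is that of the start at the lowest coordinate, and held neither motif.
HOXA2, chr7:27102634-27102933, minus strand: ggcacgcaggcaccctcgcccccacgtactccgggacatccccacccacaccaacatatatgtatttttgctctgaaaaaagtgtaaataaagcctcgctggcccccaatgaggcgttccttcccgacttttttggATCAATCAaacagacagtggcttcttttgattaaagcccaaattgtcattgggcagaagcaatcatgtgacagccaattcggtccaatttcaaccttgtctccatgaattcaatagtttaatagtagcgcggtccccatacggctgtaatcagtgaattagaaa
HOXB1, chr17:48530962-48531261, minus strand: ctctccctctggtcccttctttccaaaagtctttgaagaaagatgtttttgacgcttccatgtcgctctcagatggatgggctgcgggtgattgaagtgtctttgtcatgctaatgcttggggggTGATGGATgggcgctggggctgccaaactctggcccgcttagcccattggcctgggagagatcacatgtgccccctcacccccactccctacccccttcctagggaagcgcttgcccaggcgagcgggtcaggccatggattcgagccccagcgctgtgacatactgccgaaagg
HOXA3, chr7:27113793-27114092, minus strand: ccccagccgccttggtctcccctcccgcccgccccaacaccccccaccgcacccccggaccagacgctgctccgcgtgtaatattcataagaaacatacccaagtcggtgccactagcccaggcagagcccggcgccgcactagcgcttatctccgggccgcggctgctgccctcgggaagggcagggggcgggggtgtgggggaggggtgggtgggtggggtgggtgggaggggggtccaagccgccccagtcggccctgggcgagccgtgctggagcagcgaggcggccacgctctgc
HOXD3, chr2:176157057-176157356, plus strand: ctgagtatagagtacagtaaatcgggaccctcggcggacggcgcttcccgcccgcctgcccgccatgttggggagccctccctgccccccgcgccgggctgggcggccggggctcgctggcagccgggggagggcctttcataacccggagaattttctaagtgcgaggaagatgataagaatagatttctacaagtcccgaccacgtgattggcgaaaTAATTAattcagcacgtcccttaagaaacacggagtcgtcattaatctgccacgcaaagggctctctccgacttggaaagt
The marked letters started at position -114 from the start of HOXA2, -125 from that of HOXB1 and -31 from that of HOXD3. TGATNNAT was present in 4 of the 29 promoters of the members, those of HOXA-AS3, HOXA2, HOXB1 and HOXD11, and in 7.4% of all 35116 promoters. TAATTA was present in 3 (HOXA-AS2, HOXD11 and HOXD3) and in 4.84% of all promoters. AGGTCA, a half-site of nuclear receptors, was present in 0 of the 29 and in 13.8% of all, and TATAAA in 5 promoters of HOXA10, HOXA3, HOXA9 and HOXD13 and in 11.5% of all. The median number of CpG dinucleotides was 21 in the promoters of the members and 14 in all promoters. Genes without a read (HOXD11, HOXD3 and HOXA-AS3) and genes with many (HOXA2 and HOXB1) were both among those with a motif.

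Over the 6 libraries 17834 reads fell on the analysed HOX genes, a summed level of 199.7 CPM. The HOXB cluster on chromosome 17 held 14895 of them (83.5%), the 10 analysed genes of the HOXA cluster on chromosome 7 held 1692 (9.49%), the HOXC cluster on chromosome 12 held 1247 (6.99%), and the HOXD cluster on chromosome 2 held 0. HOXB2 by itself took 45.8% of the HOX reads. HOXB1 to HOXB5 together with HOXA2 and HOXA3, the genes of the 3′ ends of their clusters, took 91.4%. The HOX reads of these cells were thus largely those of the 3′ genes of HOXB. HOXC contributed almost entirely through its 5′ end, since 1238 of its 1247 reads lay on HOXC13. In bulk RNA, fewer cells that use a gene and less RNA of it per cell cannot be told apart.

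**Figure D1:**
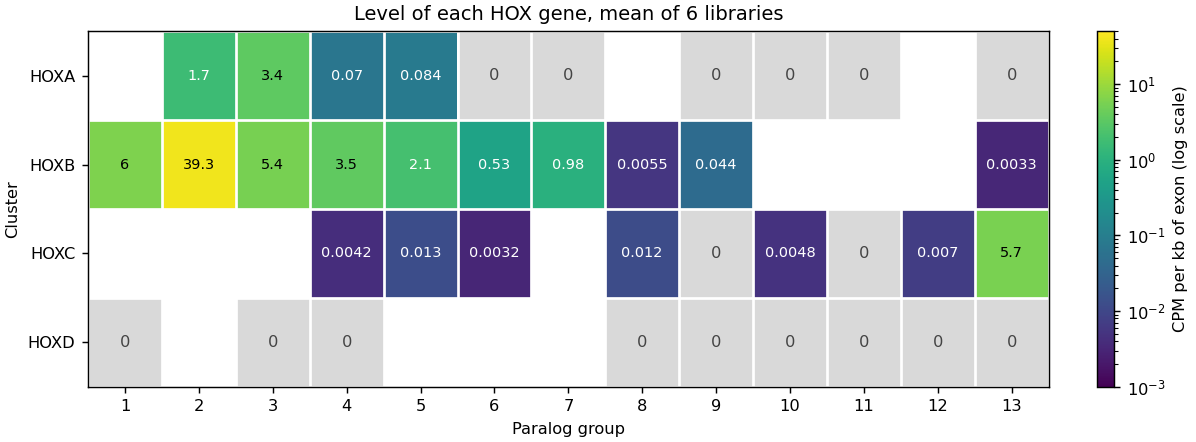
Mean level of each HOX gene over the 6 libraries, in CPM per kb of exon (colour on a log scale, value in the cell), by cluster (rows) and paralog group (columns). Grey cells mark genes without a read, white cells hold no gene analysed here, and the highest value is that of HOXB2 at 39.3.

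Paralog group 2 took 47.9% of the HOX reads and group 3 took 27.3%. Levels between genes were compared per length, as CPM per kb of all annotated exons. On this scale the summed level in siControl was 6.31 ± 1.27 (SD, n = 3) for group 1, 37.6 ± 1.92 for group 2, 8.89 ± 0.0816 for group 3, 3.24 ± 0.573 for group 4 and 1.96 ± 0.514 for group 5. It was 0.533 ± 0.160 for group 6 and 0.926 ± 0.161 for group 7, and 5.18 ± 0.424 for group 13. In siHOXA3 the corresponding levels were 5.78 ± 0.941, 44.3 ± 8.67, 8.66 ± 1.21, 3.99 ± 0.199 and 2.35 ± 0.390 for groups 1 to 5, 0.530 ± 0.218 and 1.03 ± 0.284 for groups 6 and 7, and 6.31 ± 1.10 for group 13. Among these sums over the analysed genes, groups 2 and 3 were the highest in both, and groups 1 and 13 changed places within their spread. Between group 7 and group 13 the clusters were almost without reads, as groups 8 to 12 with 15 genes in all held 16 reads in the 6 libraries together, and 10 of these 15 genes held none. The level per kb of the 10 HOXB genes declined with the paralog number (Spearman's rho = -0.964, a description over genes of the same libraries). The order was broken where HOXB2 stood above HOXB1, HOXB7 above HOXB6, and HOXB9 above HOXB8, the last pair resting on 5 reads and 1 read in siControl. HOXB7 ranked above HOXB6 with each gene length used. Their siControl counts overlapped, at 15, 20 and 28 for HOXB6 and 25, 18 and 21 for HOXB7, so this break rests on length. Of the exon bases of HOXB6, 67.1% lie in no other gene.

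Summed levels of the clusters per kb were 53.7 ± 2.98 in siControl and 62.0 ± 7.41 in siHOXA3 (SD, n = 3 each) for HOXB, 5.19 ± 0.415 and 6.39 ± 1.09 for HOXC, and 5.79 ± 0.270 and 4.64 ± 0.711 for HOXA. By library, HOXA stood at 5.93, 5.96 and 5.47 in siControl and at 3.83, 5.15 and 4.94 in siHOXA3, so that its groups did not overlap. Most of this sum was HOXA3, the siRNA target, at 3.71 ± 0.141 in siControl and 3.07 ± 0.530 in siHOXA3. HOXA2 held 1.84 ± 0.156 and 1.49 ± 0.374. Among all single genes tested, the siHOXA3 libraries were all lower in 6.88%. The share of HOXA among the HOX reads was 11.1%, 10.9% and 11.03% in siControl and 7.32%, 7.96% and 8.85% in siHOXA3. The HOXB share was 82.7%, 81.9% and 82.3% against 86.2%, 84.9% and 82.8%. The HOXA share was thus lower in each of the 3 siHOXA3 libraries and the HOXB share higher, and both groups were seen to be apart only after the values were known, so no test is given. The shares of 1 library add up to the whole and do not show which cluster moved.

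The 12 members that passed the filter on low counts were HOXA2, HOXA3, HOTAIRM1, HOXA-AS2, HOXB1 to HOXB7 and HOXC13. The other 30 rows held 45 reads in all, 0.224% of the reads on members. With edgeR's quasi-likelihood test and Benjamini-Hochberg adjustment over 16561 genes, 0 of the 12 had an adjusted p under 0.05 (range 0.791 to 0.991), beside 1 gene in the whole matrix (0.00604%). At an unadjusted p under 0.05, 0 of the 12 passed and 6.36% of all genes did. DESeq2 and limma-voom also called 0 of the 12. 7 members had a positive and 5 a negative log2 fold change of siHOXA3 over siControl, with a median of 0.07 against 0.0019 over all genes. The median was -0.024 without the library labelled siHOXA3 2. In 1 member, HOXB2, the siHOXA3 libraries were all higher than the siControl libraries, which held for 6.41% of all genes, and in 0 members were they all lower, which held for 6.88%.

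**Figure D2:**
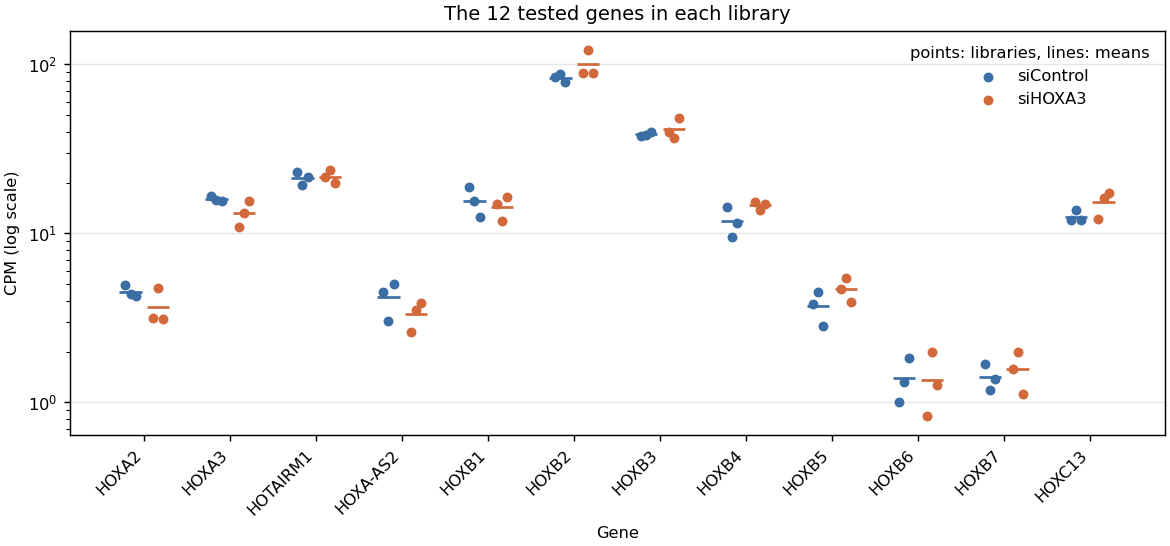
CPM of the 12 tested members in each library (log axis), with 1 point per library, blue for siControl and orange for siHOXA3, and lines for the means of 3. The colours overlap in every gene except HOXB2, whose lowest siHOXA3 library (88.4 CPM) lies just above the highest siControl library (87.6 CPM).

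HOXA3 (ENSG00000105997, GRCh38 chr7:27106184-27152581, minus strand), the target of the siRNA and the HOX gene most closely tied to the third pouch, had counts of 248, 240 and 236 in siControl and 159, 199 and 220 in siHOXA3. The libraries labelled siHOXA3 1 and siHOXA3 2 lay below every siControl library, and the library labelled siHOXA3 3, at 15.49 CPM, lay within the siControl range of 15.46 to 16.65 CPM. Its level was 15.99 ± 0.606 CPM in siControl and 13.2 ± 2.28 CPM in siHOXA3 (SD, n = 3 each). Relative to the siControl mean, the siHOXA3 libraries held 68.4%, 82.8% and 96.9%. The log2 fold change was -0.27 ± 0.157 (SE), with an adjusted p of 0.828 by edgeR's quasi-likelihood test, and the exact two-sided permutation test of CPM gave p = 0.2, where 0.1 is the smallest p that 3 libraries against 3 allow. The 95% interval ran from 65.0% to 105.0% of the siControl level, and the log2 fold change was -0.15 without the library labelled siHOXA3 1. The paper reports that this siRNA reduced HOXA3 mRNA by qRT-PCR and HOXA3 protein by Western blot, with weaker immunofluorescence. In these counts the target lay within the siControl range in 1 of the 3 libraries that carry its label. It did not pass the test over all 3, and siHOXA3 is used below only as the name of these libraries. Within siControl HOXA3 varied by 3.79% (coefficient of variation), less than the 6.44% that counting alone gives, and within siHOXA3 by 17.3% against 7.20%.

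Of the 4306 exon bases of HOXA3, 662 are also exon of HOXA-AS3 or HOXA-AS2, which run on the other strand, and 82.1% lie in no other gene. Whether the counting used strand is not given in the sources used here, so reads in the shared stretch cannot be assigned to one or the other gene. HOXA-AS2, transcribed against HOXA3 and HOXA4, had counts of 67, 46 and 77 in siControl and 38, 53 and 55 in siHOXA3. Its log2 fold change was -0.33 ± 0.268 (SE; adjusted p = 0.856 by edgeR), and was -0.52 without siControl 2, -0.17 without siControl 3 and -0.18 without the library labelled siHOXA3 1. The siHOXA3 libraries lay lower on average, but the siControl library with 46 reads lay among them. HOXA-AS3 had 0 reads in all libraries.

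HOXA2, which gives the second pharyngeal arch its identity, had counts of 74, 66 and 65 in siControl and 46, 71 and 44 in siHOXA3. The library labelled siHOXA3 2 stood with the siControl libraries and the other two stood lower. Its log2 fold change was -0.30 ± 0.241 (adjusted p = 0.856 by edgeR), and was -0.53 without the library labelled siHOXA3 2 and -0.20 without that labelled siHOXA3 3. HOTAIRM1, a noncoding RNA at the 3′ end of the cluster that is induced by RA in myeloid cells, had counts of 342, 293 and 328 in siControl and 313, 357 and 282 in siHOXA3. These groups overlapped throughout and the log2 fold change was 0.03 ± 0.131 (adjusted p = 0.970 by edgeR), with a 95% interval from -0.26 to 0.32. Of its 1496 exon bases 55.1% lie in no other annotated gene. Of the 4 tested members of this cluster 3 had a negative log2 fold change, with a median of -0.29.

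Farther along the cluster the reads ran out. HOXA4 had counts of 1, 5 and 1 in siControl and 0, 2 and 2 in siHOXA3, and HOXA5, which is needed for lung and trachea, had 0, 8 and 3 against 0, 2 and 0. Both were at or near the floor of 3 counts, and no fold change is given. HOXA6, HOXA7, HOXA9, HOXA10, HOXA11 and HOXA13 held 0 reads in all 6 libraries, which allows each a level of up to 0.0336 CPM. These genes carry the identity of the trunk, the limb and the reproductive tract. Only 37.5% of the exon bases of HOXA7 lie in no other gene, and a counter that drops shared reads would lose the rest, whereas for HOXA13 98.3% do.

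HOXB was the cluster with most reads, and its genes lie on the minus strand of chromosome 17. HOXB1 (chr17:48528526-48531001), which sets the identity of rhombomere 4 in the hindbrain, had counts of 280, 235 and 191 in siControl and 216, 177 and 232 in siHOXA3. The groups overlapped over most of their range. Its level was 15.6 ± 3.14 CPM and 14.3 ± 2.33 CPM, and the log2 fold change was -0.13 ± 0.184 (adjusted p = 0.918 by edgeR), which ran from -0.26 to 0.03 with 1 library left out. HOXB2 (chr17:48540894-48544989), a hindbrain gene that HOXB1 and EGR2 switch on in the embryo, had counts of 1252, 1325 and 1204 in siControl and 1286, 1840 and 1266 in siHOXA3. The library labelled siHOXA3 2 stood far above the other 5. Its level was 83.5 ± 4.38 CPM in siControl and 99.98 ± 19.4 CPM in siHOXA3, with a log2 fold change of 0.26 ± 0.133 (adjusted p = 0.791 by edgeR). This was 0.09 without the library labelled siHOXA3 2 and 0.34 without that labelled siHOXA3 1.

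HOXB3, the closest relative of HOXA3 in this cluster, had counts of 562, 577 and 610 in siControl and 582, 555 and 683 in siHOXA3. The library labelled siHOXA3 3 was the highest and the library labelled siHOXA3 2 the lowest of the 6 in CPM. Its log2 fold change was 0.11 ± 0.122 (adjusted p = 0.893 by edgeR), with a 95% interval from -0.16 to 0.38, and was 0.19 without the library labelled siHOXA3 2 and -0.0041 without that labelled siHOXA3 3. HOXB4, known for its action on blood stem cells, had counts of 214, 145 and 176 in siControl and 224, 208 and 213 in siHOXA3. The siHOXA3 libraries were close together, at 14.7 ± 0.815 CPM, and the siControl library with 214 reads stood among them. Its log2 fold change was 0.32 ± 0.170 (adjusted p = 0.812 by edgeR), and was 0.48 without siControl 1 and 0.19 without siControl 2. HOXB3 and HOXB4 share exon bases on the same strand, and 86.8% and 82.9% of their exon bases lie in no other gene.

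HOXB5, a gene of the gut nervous system and vessels, had counts of 57, 68 and 43 in siControl and 68, 82 and 56 in siHOXA3, with a log2 fold change of 0.34 ± 0.247 (adjusted p = 0.848 by edgeR). This was 0.17 without siControl 3 and 0.21 without the library labelled siHOXA3 2, and reached 0.50 without siControl 2. HOXB6 had 15, 20 and 28 reads against 12, 30 and 18, and HOXB7 had 25, 18 and 21 against 23, 30 and 16. Both groups of each of these genes overlapped. The 95% interval of the log2 fold change reached from -0.94 to 0.89 in HOXB6 and from -0.63 to 0.93 in HOXB7. Neither the direction nor the size of a change was thus resolved in these genes. HOXB8, HOXB9 and HOXB13, the last of them a gene of the prostate and tail end, held 12 reads in the 6 libraries together, 10 of them on HOXB9 with 1, 1 and 3 in siControl and 0, 0 and 5 in siHOXA3. Of the 7 tested HOXB genes 5 had a positive log2 fold change, with a median of 0.15.

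**Figure D3:**
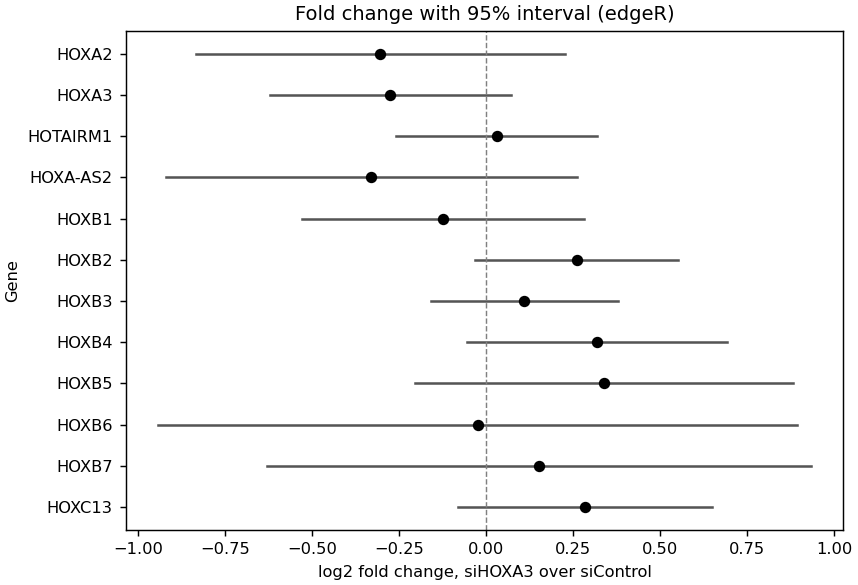
log2 fold change of siHOXA3 over siControl (x axis) with its 95% interval from edgeR's quasi-likelihood fit, for the 12 tested members (y axis). Every interval holds 0, and the widest are those of HOXB6 and HOXB7.

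HOXC13 (chr12:53938765-53946544, plus strand), which controls hair keratin genes in the hair follicle and nail, was the only HOXC gene that passed the filter. It had counts of 178, 208 and 183 in siControl and 178, 245 and 246 in siHOXA3. The library labelled siHOXA3 1 stood with the siControl libraries and the other two stood above them. Its level was 12.6 ± 1.03 CPM and 15.3 ± 2.69 CPM, with a log2 fold change of 0.28 ± 0.166 (adjusted p = 0.828 by edgeR). This was 0.19 without the library labelled siHOXA3 3 and 0.42 without that labelled siHOXA3 1. The other 9 HOXC rows held 9 reads in all, with no more than 2 in 1 library. HOXC4, HOXC5, HOXC6, HOXC8 and HOXC10, genes of the trunk and limb, had 1 or 2 reads each. HOXC9, HOXC11 and the second HOXC5 row held none. HOXC12, the neighbour of HOXC13, had 2 reads, both in the library labelled siHOXA3 3. Only 0.2% of the exon bases of the second HOXC5 row and 40.1% of those of protein-coding HOXC5 lie in no other gene. Their counts are uncertain if shared reads were dropped. HOXC13 shares 172 of its 2423 exon bases with HOXC13-AS on the opposite strand, and 92.9% lie in no other gene. HOXC13-AS had counts of 25, 38 and 24 in siControl and 47, 44 and 27 in siHOXA3. The other genes of paralog group 13, HOXA13, HOXB13 and HOXD13, which act in digits and the hindgut and prostate, held 1 read together, on HOXB13.

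The 9 HOXD genes held 0 reads in 89300407. HOXD3, a paralog of HOXA3, and HOXD4 share most of their exon bases with a further gene on the same strand, and 25.9% and 19.5% of their exon bases lie in no other gene, so their counts of 0 are uncertain if shared reads were dropped. HOXD1 is also mostly shared, with 41.9% in no other gene. HOXD8, HOXD9, HOXD10, HOXD11, HOXD12 and HOXD13 have between 78.6% and 100% of their exon bases to themselves. In these libraries the counts of group 3 thus came from HOXA3 and HOXB3 alone. MTX2 and LNPK, which flank the HOXD cluster, had 353 to 542 and 621 to 816 reads per library.

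The order of the tested members by level per kb in siControl was HOXB2 (35.7 ± 1.87), HOTAIRM1 (14.2 ± 1.21), HOXB1 (6.31 ± 1.27), HOXC13 (5.18 ± 0.424), HOXB3 (5.18 ± 0.159), HOXA3 (3.71 ± 0.141), HOXB4 (3.15 ± 0.640), HOXA2 (1.84 ± 0.156), HOXB5 (1.82 ± 0.414), HOXB7 (0.926 ± 0.161), HOXA-AS2 (0.794 ± 0.196) and HOXB6 (0.533 ± 0.160), all in CPM per kb (SD, n = 3). The ranges of the siControl libraries did not overlap between HOXB2 and HOTAIRM1, HOTAIRM1 and HOXB1, HOXB3 and HOXA3, HOXB4 and HOXA2, or HOXB5 and HOXB7. All other neighbours in the order overlapped, HOXA3 and HOXB4 among them. HOXA3 kept rank 6 and HOXB2 rank 1 with the length of the longest transcript and with the exon bases that no other gene covers, the latter chosen after seeing the data. HOXB3 moved up to rank 3 with the longest transcript.

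The spread between libraries differed among the members. In siControl the coefficient of variation of CPM ran from 3.07% in HOXB3 to 30.1% in HOXB6, and exceeded what counting alone gives in 8 of the 12 tested members. In siHOXA3 it ran from 5.53% in HOXB4 to 43.4% in HOXB6 and exceeded the counting value in 11 of 12. HOXB2, the member with most reads, varied by 5.24% in siControl and by 19.4% in siHOXA3, where counting gives 2.82% and 2.61%. HOXB1 varied by 20.1% and 16.3%, with 6.52% and 6.93% from counting, and HOXB4 by 20.3% in siControl with 7.49% from counting. In these genes the libraries thus differed by more than counting error, whereas HOXB7 in siControl, at 17.4%, lay below its counting value of 21.7%.

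Ratios between members within a library need no scaling between libraries. The log2 ratio of HOXA3 to HOXB3 counts was -1.18, -1.26 and -1.37 in siControl and -1.87, -1.48 and -1.63 in siHOXA3. The groups did not overlap, and their means differed by -0.39. The exact two-sided permutation test gave p = 0.1, the smallest that 3 against 3 allow, and 0.2 after Benjamini-Hochberg adjustment over the 2 ratios computed. HOXA3 held 30.6%, 29.4% and 27.9% of the counts of paralog group 3 in siControl and 21.5%, 26.4% and 24.4% in siHOXA3. The exact 95% binomial interval of the highest siHOXA3 share, 23.3% to 29.7%, reached into those of the siControl libraries. The log2 ratio of HOXA3 to HOXA2 was 1.74, 1.85 and 1.85 in siControl and 1.78, 1.48 and 2.31 in siHOXA3, with a difference of 0.04 (exact permutation p = 0.9, also after adjustment). HOXA3 made up 76.5% ± 1.11 of the counts of the analysed HOXA genes in siControl and 77.6% ± 5.04 in siHOXA3 (SD, n = 3 each). The ratio of the siRNA target to its HOXB paralog was thus lower in all 3 siHOXA3 libraries, and that to its neighbour HOXA2 was not set apart. A ratio does not show which gene moved. In the library labelled siHOXA3 3, HOXA3 lay within its siControl range at 15.49 CPM, and HOXB3 was the highest of all libraries at 48.1 CPM.

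**Figure D4:**
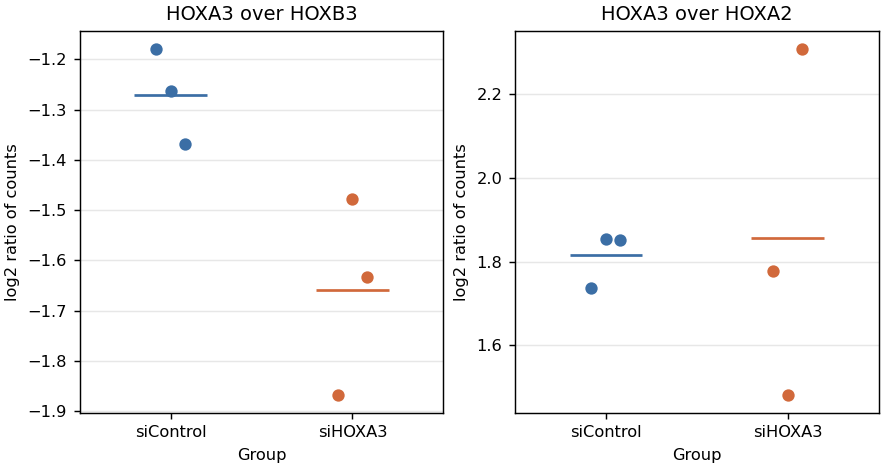
log2 ratio of HOXA3 counts to HOXB3 counts (left) and to HOXA2 counts (right) in each library, with points for libraries and lines for group means; the axes do not start at 0. The siHOXA3 points all lie below the siControl points on the left and on both sides of them on the right.

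Per kb, HOXB2 exceeded its paralog HOXA2 by 17.8, 21.1 and 19.5 times in the siControl libraries and by 29.4, 27.3 and 30.3 times in the siHOXA3 libraries. The means were 19.5 ± 1.66 and 28.99 ± 1.55 (SD, n = 3 each), and the groups stood apart. This ratio was chosen after its values were seen and carries no test. HOXB3 exceeded HOXA3 by 1.31, 1.39 and 1.49 times in siControl and by 2.11, 1.61 and 1.79 times in siHOXA3. The size of this excess depended on the length used, and in siControl was 1.95 ± 0.129 with the longest transcript in place of all exons. In both paralog groups the HOXB gene was the more abundant in every library.

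The other genes of the HOX system were described from lists. Of 9 TALE cofactors, the PBX, MEIS and PKNOX proteins with which HOX proteins bind DNA, 8 were tested, 0 were called by edgeR at an adjusted or an unadjusted p under 0.05, and 4 had a positive and 4 a negative log2 fold change (median 0.0013). Of 22 regulators of HOX expression, among them retinoic acid receptors, KMT2A and Polycomb subunits, 17 were tested and 0 called at either threshold, with 6 positive and 11 negative (median -0.04). EGR2, a hindbrain regulator of HOXB2, was near 0, with 3, 0 and 0 reads in siControl. Of 15 RA response genes, 12 were tested and 0 called, with 7 positive and 5 negative (median 0.02). Beside 6.36% of all genes, 3 of the 12 had an unadjusted p under 0.05 by edgeR. Of these, STRA6, a receptor for the retinol carrier, had 42.8, 45.6 and 43.4 CPM in siControl and 32.6, 32.0 and 32.5 CPM in siHOXA3, with a log2 fold change of -0.44 ± 0.103 (adjusted p = 0.486 by edgeR). NR2F2, an RA-induced nuclear receptor, had 156, 155 and 151 CPM against 190, 195 and 195 CPM, with a log2 fold change of 0.33 ± 0.0903 (adjusted p = 0.549 by edgeR). The groups of both genes stood apart, which was a condition for naming them. Over all genes the siHOXA3 libraries were all higher in 6.41% and all lower in 6.88%. Neither gene passed the adjusted threshold of edgeR. With limma-voom STRA6 just passed it (log2 fold change -0.45, adjusted p = 0.0499) and was the only gene of these lists and of those below that DESeq2 or limma-voom called.

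Of 23 other genes inside or beside the clusters, 6 were tested and 0 called at either threshold, with 5 positive and 1 negative (median 0.13). HOXB-AS1, opposite HOXB2 and HOXB3, had counts of 116, 105 and 144 in siControl and 153, 128 and 129 in siHOXA3, which overlapped. HOTTIP, HOTAIR, HAGLR, EVX1 and EVX2, which belong to the 5′ parts of the clusters or to HOXD, had 0 reads in all libraries. Marker lists of the cells were set beside these results: the summed level ranged from 1511 to 1583 CPM in siControl and from 1562 to 1696 CPM in siHOXA3 for 8 amnion and trophoblast genes (7 tested, 5 positive), from 313 to 329 and from 309.6 to 447 CPM for 8 endoderm genes, mostly EPCAM with a siControl mean of 262.9 CPM (3 tested, 2 positive), and from 96.0 to 108 and from 90.1 to 109 CPM for 9 pouch genes, HOXA3 among them (4 tested, 2 positive). It ranged from 1586 to 1696 and from 1809 to 1973 CPM for 5 mesenchyme genes, mostly COL1A1 with a siControl mean of 1364 CPM (4 tested, 3 positive), from 1139 to 1181 and from 1190 to 1326 CPM for 5 pluripotency genes, mostly LIN28A with a siControl mean of 1049 CPM beside 5.47 for POU5F1, 3.62 for SOX2 and 0.0895 for NANOG (4 tested, 4 positive), and from 11.7 to 15.7 and from 14.4 to 16.5 CPM for 5 neural and hindbrain genes (2 tested, 1 positive). In each of these lists edgeR called 0 genes, and 1 gene each of the amnion and mesenchyme lists, TFAP2A and VIM respectively, and none of the others had an unadjusted p under 0.05. Over all genes 6.36% had such a p. VIM, a mesenchyme gene, had a log2 fold change of 0.50 ± 0.142 (adjusted p = 0.561 by edgeR), and TFAP2A had 0.23 ± 0.104 (adjusted p = 0.781 by edgeR). Groups that stood apart were a condition for naming them. Both had higher values in all siHOXA3 libraries, which held for 6.41% of all genes. The part of such cells in the levels of the HOX genes was not tested.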

How the data were processed

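RNA-seq was performed on 6 libraries, and the authors deposited 1 table of raw counts of reads per gene, as whole numbers without normalization. The labels name the LM-Seq protocol and a SMARTER kit. The submitters' processing notes list the builds GRCm38 and mm10, although all 58735 identifiers were human genes of GENCODE release 29 on GRCh38. The aligner, counter and use of strand are not given in the sources used here. Counts were filtered by filterByExpr, normalized by TMM and compared by the two-sided quasi-likelihood test of edgeR 4.0.16 (limma 3.58.1, DESeq2 1.42.0, R 4.3.3), which tested 16561 genes; 24222 genes had no count. Normalization factors ranged from 0.986 to 1.01. CPM and CPM per kb of exon were computed here from the deposited counts. Log2 ratios used a pseudocount of 0.5 counts. A gene was called at an adjusted p under 0.05. Counts of each tested member were given in every library, and genes of lists were named when groups did not overlap with an unadjusted p under 0.05, at most 3 per list. The cell type marker genes and the cluster neighbours were named outside this rule, after their values were seen. Members and lists were chosen with earlier results of these data known. Alternatives were other normalizations, filters, tools, a replicate block, gene lengths and each library left out in turn. On simulated counts of this comparison (16224 of 16561 genes tested) the test found 75% of the genes given a log2 change of 1 and 96% at a log2 change of 2, with 5.52% false calls. No smaller change was simulated, whereas the log2 fold changes of the tested members ran from -0.33 to 0.34. The changed genes were drawn from those above 1 CPM, and no simulated library was set apart from the rest. Total counts ranged from 14117150 to 15282307, which makes a count of 3 worth 0.197 to 0.211 CPM. No pair of libraries agreed within sampling noise. The siRNA sequences were not analysed here.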

Additional observations from a re-analysis of the deposited data

How the results depend on the processing

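Under all 13 alternatives 0 members had an adjusted p under 0.05. The number of genes called in the whole matrix was 1, and became 36 with DESeq2, 100 without a filter (34513 genes tested), 47 with limma-voom and 1 to 24 with a library left out, 24 of them without the library labelled siHOXA3 2. With the replicate block it was 4. Deviations of libraries with the same number correlated by 0.158, 0.111 and -0.0714, so the numbers were not taken to pair the libraries. Of 156 values of single members, 8 changed sign and no value passed the threshold. With a library left out, the log2 fold change lay between -0.26 and 0.029 for HOXB1 (positive without siControl 1), -0.043 and 0.092 for HOTAIRM1 (negative without siControl 2 at -0.03 or siHOXA3 2), -0.41 and 0.24 for HOXB6 (positive without siControl 3, siHOXA3 1 or siHOXA3 3), -0.064 and 0.34 for HOXB7 (negative without siHOXA3 2), and -0.0041 and 0.19 for HOXB3 (negative without siHOXA3 3). The median over the members lay between -0.024 and 0.14, the log2 fold change of HOXA3 between -0.40 and -0.15 (adjusted p over all alternatives 0.325 to 0.997), and the difference of the HOXA3 to HOXA2 ratio between -0.19 and 0.23. That of the HOXA3 to HOXB3 ratio lay between -0.48 and -0.28. The causes were not tested.

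Summed levels per kb, as means of 6 libraries, depended on gene length. With the longest transcript HOXB moved from 57.9 to 83.1, HOXA from 5.21 to 6.51, group 1 from 6.04 to 7.39, group 2 from 40.9 to 60.8, group 3 from 8.78 to 13.8 and group 6 from 0.531 to 0.705. With exon bases in no other gene, added after seeing the data, HOXA was 6.02, group 3 10.3, group 4 4.40 and group 6 0.791.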
